A study of Mus musculus with 168 samples.

Results

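The mRNA of facial motor neurons was followed in control mice over the first postnatal days. Facial motor neurons lie in the brainstem and innervate the muscles of facial expression. Members were taken by the group labels alone: all control libraries of the facial nucleus, 13 of the 168 libraries of the series, with 1 library from each of 13 mice. They fell into 5 mice at postnatal day 2, 4 at day 5 and 4 at day 10. Each library came from a pool of about 150 cells, cut by laser from stained frozen sections and turned into cDNA by Smart-seq2, a full-length method for small amounts of polyA RNA, with libraries cut by Tn5. Every control mouse had the genotype Smn+/+/SMN2+/+/SMN∆7+/+. These littermates of mice with spinal muscular atrophy keep both copies of mouse Smn, and all of them, at every age, also carry the human SMN2 gene and the SMN∆7 transgene. The series was built to study the disease, and the comparison here is of age alone: day 10 against day 2, with day 5 as the middle point.

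Motor neurons are born long before birth, but they complete much of their adult form in the first postnatal weeks. During that time the axon thickens, which depends on neurofilaments, and surplus contacts at the neuromuscular junction are pruned. Sodium and potassium channels of the fetal type give way to the subunits that sustain fast repetitive firing, inhibitory inputs take on adult receptor subunits, and a net of matrix proteins forms around the cell body. Myelin is laid down around the axons by neighbouring oligodendrocytes in the same period.

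Sequencing depth, recovered from the step size of the values, ran from 2.76 to 9.29 (in units of 1e6 reads) per library with a median of 7.24. The median was 4.92 at day 10 against 7.24 at day 2, and both the shallowest library (mouse 253) and the deepest (mouse 254, 9.29) were of day 10, so that its range spanned that of day 2 (6.09 to 7.69). Between 14957 and 18419 genes were above 0. Markers of cholinergic motor neurons were present in every mouse. Chat, the enzyme that makes acetylcholine, was at 4.62 to 35.7 RPKM (reads per kilobase of gene, scaled to the depth of the library). The factor Isl1 was at 95.7 to 309. Mnx1, which marks hypoglossal and spinal motor neurons, stayed at or below 0.541, and Hoxc10, a lumbar gene, at or below 0.0793. Pou4f1, a gene of the red nucleus, was at or below 1.26 except in mouse 14 at day 2, where it was 4.32.

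Age was the leading axis of variation. The first principal component held 17.6% of the variance over 14302 genes, and 89.7% of its own variance lay between the ages. The day 10 mice scored from 34.8 to 62.0, the day 5 mice from -18.0 to 4.44 and the day 2 mice from -58.5 to -21.8, so that the 3 ages did not overlap. The next components did not follow age. On them mouse 26 and mouse 28, both at day 2, stood apart from the other mice. These mice had 15077 and 15098 genes above 0, against 16822 to 17518 in the other day 2 mice. Mouse 253 of day 10 had fewer still (14957). The part of gene detection in these components was not tested.

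**Figure D1:**
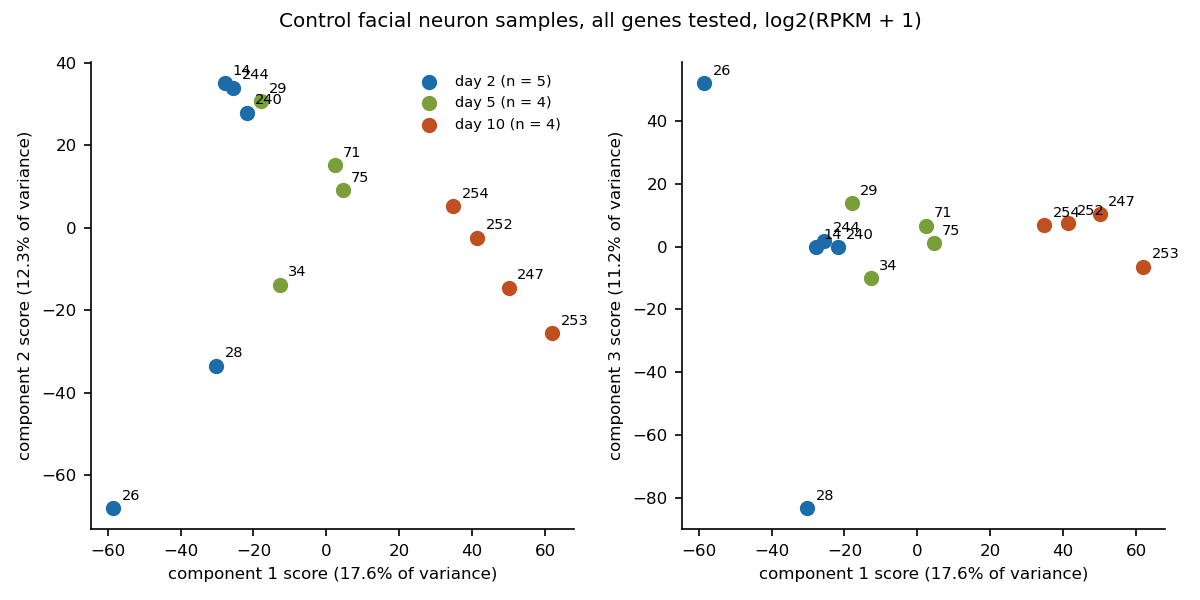
Scores of the 13 control facial samples on principal components 1 and 2 (left) and 1 and 3 (right), from log2(RPKM + 1) of 14302 genes. Each point is a mouse, labelled with its number and coloured by age. The ages separate along component 1, and mice 26 and 28 of day 2 lie apart on components 2 and 3.

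Between day 2 and day 10, 772 of 14302 genes (5.4%) changed, by limma on log2(RPKM + 1) with an adjusted p under 0.05. Of these 378 (2.64%) rose and 394 (2.75%) fell, and 1364 genes (9.54%) had mouse values that did not overlap between both ages, 656 (4.59%) of them higher and 708 (4.95%) lower at day 10. The median size of the called changes was 1.33 on the log2 scale among the genes that rose and 1.42 among those that fell, where 1 stands for a change by a factor of 2. All differences below are on that scale unless a level in RPKM is named, and because 1 is added to each value the change of a weakly expressed gene comes out too small. The number of calls moved when 1 mouse was left out: it ran from 472 to 751, and was lowest without mouse 247 (472), mouse 252 (479) or mouse 253 (493), all of day 10. The filter was set anew in each of these fits, so the genes tested ran from 14027 (without mouse 244) to 14980 (without mouse 247). Of the 141 called genes that stand in a list below or are named, 84 kept their call in every fit without 1 mouse. The other 57 reached adjusted p values of up to 0.164. The p-values measure the spread between mice, and each mouse gave a single pool of cells. In pools, a smaller share of cells that express a gene and less of its RNA per cell cannot be told apart.

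Among genes with a mean of at least 10 RPKM at the higher age and no overlap of mice, the largest falls were those of Crabp2, Crip1, Grp and Vim. In the order used throughout, the day 2 mice are 14, 26, 28, 240 and 244, the day 5 mice 29, 34, 71 and 75, and the day 10 mice 247, 252, 253 and 254. Positions are those of the whole gene in GENCODE M21 (GRCm38). Crabp2 (chr3:87948666-87953376, plus strand), a binding protein that hands retinoic acid to its receptor in the nucleus, was at 132, 248.2, 184.7, 200.4 and 393 RPKM in the day 2 mice, 35.6, 90.7, 93.5 and 85.1 at day 5 and 0, 9.37, 1.17 and 15.4 at day 10. No mouse of an older age reached the lowest of a younger one, and Crabp2 fell by 5.64 ± 0.64 (SE) on the log2 scale (adjusted p 1.10e-04) from day 2 to day 10. Vim (chr2:13573927-13582826, plus strand), the intermediate filament of immature neurons and glia, went from 82.6, 144, 107.2, 210.01 and 169.8 RPKM at day 2 through 44.7, 45.2, 48.5 and 68.4 at day 5 to 4.6001, 5.45, 8.58 and 5.11 at day 10. Its 3 ages did not overlap either, and the fall was 4.33 ± 0.27 (SE) on the log2 scale (adjusted p 5.06e-07). Crip1 (chr12:113146316-113153879, plus strand), a small LIM-domain protein, was at 19.9, 81.99, 77.8, 78.9 and 93.5 RPKM at day 2, at 43.3, 69.4, 7.10 and 22.8 at day 5, and at 0, 5.76, 0 and 3.63 at day 10. Day 5 overlapped with day 2, day 10 lay below both, and Crip1 fell by 4.75 ± 0.68 (SE) on the log2 scale (adjusted p 7.53e-04).

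Several secreted peptides fell with them. Grp, gastrin-releasing peptide, was at 33.01, 62.4, 40.4, 18.9 and 62.3 RPKM in the day 2 mice and at 0.675, 0.248, 0 and 1.87 in the day 10 mice. At day 5 the mice were split: 0, 29.4, 0 and 8.46 RPKM. Npy, neuropeptide Y, stood at 54.4, 95.5, 24.9, 78.5 and 66.3 RPKM at day 2 and 3.08, 1.89, 0 and 11.03 at day 10, and Sct, secretin, at 34.2, 12.4, 53.5, 41.3 and 55.6 and 0.363, 3.48, 0 and 8.99. All 3 peptides were lower in each day 10 mouse than in any day 2 mouse, with falls of 4.70 (adjusted p 0.00312) for Grp, 4.11 (adjusted p 0.00144) for Npy and 3.69 (adjusted p 0.00206) for Sct. The remaining genes among the 12 largest falls were Cdkn1c, an imprinted inhibitor of the cell cycle (3.95, adjusted p 5.60e-05 lower), Ifitm2, an interferon-induced membrane protein (3.54, adjusted p 5.60e-05), the galectin Lgals3 (3.43, adjusted p 0.00263), Plac8 (3.77, adjusted p 0.00178), Dmkn (3.78, adjusted p 0.00606) and the microfibril protein Mfap2 (3.50, adjusted p 0.0245). The call of Mfap2 was lost without any 1 of mice 14, 240, 247 or 253 (adjusted p 0.0512 to 0.0875).

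Among the largest rises were those of a potassium and a sodium channel subunit. Kcng4 (chr8:119623854-119635680, minus strand), a modifying subunit that joins Kv2 potassium channels and is known as a gene of fast motor neurons, was listed at 0 in 4 of the 5 day 2 mice and at 0.139 RPKM in mouse 240. It was listed at 0 in all 4 mice at day 5. At day 10 it was at 26.6, 18.1, 24.9 and 20.8 RPKM, so that every day 10 mouse stood clear of every younger one. Kcng4 passed the filter on low values through its day 10 mice alone, and the genes named here were chosen for no overlap between day 2 and day 10. The separation is therefore a description. The difference between day 10 and day 2 was 4.51 ± 0.29 (SE) on the log2 scale (adjusted p 5.06e-07). Scn4b (chr9:45138395-45154152, plus strand), the sodium channel subunit linked to resurgent current and rapid firing, was at 2.27, 0.224, 0.598, 1.08 and 2.20 RPKM at day 2, 2.39, 7.20, 7.13 and 5.96 at day 5 and 20.9, 19.3, 30.99 and 25.8 at day 10. Its ages were stepwise and did not overlap, and it rose by 3.55 ± 0.38 (SE) on the log2 scale (adjusted p 7.81e-05).

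Hhatl, a relative of the enzyme that attaches palmitate to Hedgehog, rose by 3.90 ± 0.44 (SE) on the log2 scale (adjusted p 1.06e-04), from 4.49, 0, 0.506, 0.139 and 0.409 RPKM at day 2 to 30.8, 26.04, 20.1 and 20.7 at day 10. Hspb6, a small heat shock protein, was at 9.32, 4.82, 4.40, 1.16 and 3.20 RPKM in the day 2 mice and 55.1, 54.7, 52.1 and 58.0 in the day 10 mice. The groups lay far apart, with a rise of 3.50 (adjusted p 2.50e-04). Hspb6 overlaps Lin37 on the opposite strand, and Lin37 was also higher on average at day 10 (26.2 RPKM at day 2 and 45.4 at day 10; adjusted p 0.334). Amhr2, the receptor of anti-Müllerian hormone, was at 0, 1.36, 0, 0 and 0 RPKM at day 2, 13.6, 0, 19.5 and 10.02 at day 5 and 7.30, 24.1, 11.3 and 23.3 at day 10, a rise of 3.73 (adjusted p 0.00539) with mouse 34 of day 5 at 0. The crystallin Crygn rose by 3.73 (adjusted p 0.00498). A transcript listed as Cbx6_ann3 rose by 3.56 (adjusted p 0.0278), a call that was lost without any 1 of mice 26, 28, 247, 252, 253 or 254 (adjusted p 0.0545 to 0.0726). The remaining members of the 12 largest rises, Dcn and myelin genes that include Mbp and Mobp, belong to the markers of other cells and are described with them.

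The largest rise under the same conditions was that of Gm26673, which went from 0.301, 0.134, 0, 0.503 and 0 RPKM at day 2 and 0, 0, 2.83 and 5.92 at day 5 to 25.1, 26.2, 35.7 and 27.2 at day 10, a rise of 4.64 ± 0.51 (SE) on the log2 scale (adjusted p 8.35e-05). It is annotated as an antisense transcript (GENCODE M21, GRCm38, chromosome 6, 126718684 to 126741601, plus strand) and overlaps the potassium channel gene Kcna6 on the other strand. Whether the authors counted reads by strand is not given in the sources used here, and without strand the reads of both genes cannot be told apart. Kcna6 itself went the other way on average, from 15.6 RPKM at day 2 to 7.54 at day 10, and did not pass the test (adjusted p 0.247).

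**Figure D2:**
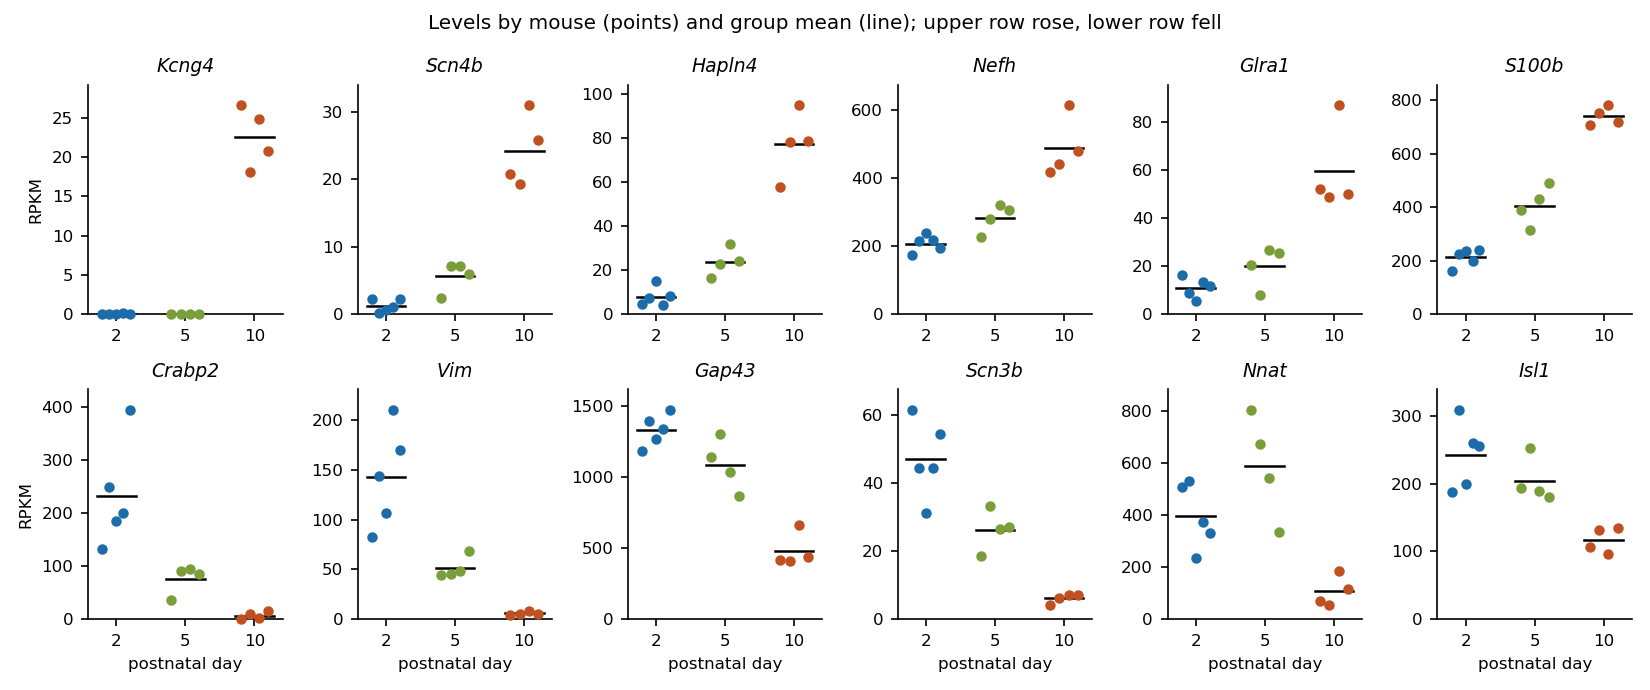
RPKM (vertical axis, linear from 0) by postnatal day for 6 genes that rose and 6 that fell from day 2 to day 10. Points are single mice and lines are group means. Kcng4 is at or near 0 through day 5 and at 18.1 to 26.6 at day 10, while most of the other genes pass through intermediate values at day 5.

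The promoters of 4 of these genes are shown because their RNA was among that which moved most, 2 up and 2 down; they were chosen after their values were seen. Each is the stretch from 250 bases before to 50 after the annotated start, from RefSeq on GRCm38.p6, written 5′ to 3′ on the strand of the gene with the CG dinucleotides in capitals.
Kcng4 promoter, chr8:119635631-119635930 (- strand): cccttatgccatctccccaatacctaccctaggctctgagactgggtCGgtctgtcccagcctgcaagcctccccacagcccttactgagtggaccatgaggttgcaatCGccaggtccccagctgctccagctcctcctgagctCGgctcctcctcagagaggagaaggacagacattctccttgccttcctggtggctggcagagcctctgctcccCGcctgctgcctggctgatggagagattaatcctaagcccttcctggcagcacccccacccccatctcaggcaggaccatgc
Scn4b promoter, chr9:45138374-45138673 (+ strand): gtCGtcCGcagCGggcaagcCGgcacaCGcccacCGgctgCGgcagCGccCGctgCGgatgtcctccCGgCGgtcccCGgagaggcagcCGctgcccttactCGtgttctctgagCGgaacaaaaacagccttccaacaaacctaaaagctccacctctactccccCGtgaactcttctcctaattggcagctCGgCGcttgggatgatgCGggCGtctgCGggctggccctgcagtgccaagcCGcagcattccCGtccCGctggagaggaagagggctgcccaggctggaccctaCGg
Vim promoter, chr2:13574061-13574360 (+ strand): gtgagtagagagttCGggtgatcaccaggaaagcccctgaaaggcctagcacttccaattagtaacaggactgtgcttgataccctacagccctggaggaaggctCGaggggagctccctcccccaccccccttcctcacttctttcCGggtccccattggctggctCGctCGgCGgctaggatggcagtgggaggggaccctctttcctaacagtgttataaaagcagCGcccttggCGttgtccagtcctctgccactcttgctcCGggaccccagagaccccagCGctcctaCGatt
Crip1 promoter, chr12:113151762-113152061 (+ strand): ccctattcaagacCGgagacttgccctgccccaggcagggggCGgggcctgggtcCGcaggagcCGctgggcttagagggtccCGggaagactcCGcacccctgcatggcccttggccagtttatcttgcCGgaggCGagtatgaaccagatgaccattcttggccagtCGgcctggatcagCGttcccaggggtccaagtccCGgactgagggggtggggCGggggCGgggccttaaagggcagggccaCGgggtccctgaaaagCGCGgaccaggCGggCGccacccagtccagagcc
The Kcng4 promoter held 4 CG dinucleotides, against 26 in Scn4b, 11 in Vim and 18 in Crip1. Promoters of 262 of the 378 genes that rose and of 268 of the 394 that fell were matched by symbol. The median number of CG dinucleotides was 17 in promoters of genes that rose, 18 in those of genes that fell and 20 over all genes tested. Promoters with 5 or fewer made up 19.3%, 12.2% and 12.2% in the same order. Sites were searched on both strands as AAGGTCA (the ERR half-site), TGACGTCA (the cyclic AMP element), AACAAAG (a SOX site) and CACGTG (an E-box), together with the DR5 retinoic acid element, and none of these stood in the 4 promoters. AAGGTCA stood in the promoters of 5.73% of the genes that rose, 4.48% of those that fell, 3.80% of all genes tested and 5.38% of all genes with a promoter in the RefSeq table. CACGTG stood in 8.78%, 10.8%, 11.7% and 8.09%. These are descriptions of letters, not of binding.

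Of the neurofilaments and related filaments, which set axon calibre, 3 of 5 tested members rose (Nefh, Nefl and Nefm) and none fell, beside 2.64% of all genes tested that rose. Nefh, the heavy subunit that is added last, was at 174.002, 214.4, 239.7, 217.4 and 195.4 RPKM at day 2, 227.6, 281, 321 and 307 at day 5 and 419, 443, 615 and 479.8 at day 10, and rose by 1.22 ± 0.16 (SE) on the log2 scale (adjusted p 3.76e-04). No day 10 mouse overlapped with a younger one. Nefl, the light subunit, was among the most abundant mRNAs, at 2508 to 3453 RPKM at day 2 and 4281 to 5924 at day 10 (0.71, adjusted p 0.00469 higher). Nefm, the middle subunit, was higher by 0.70 (adjusted p 0.0244), a call that was lost without any 1 of mice 244 or 253 (adjusted p 0.0548 to 0.0610). Prph, peripherin, stood at 1337 RPKM on average at day 2 and 1344 at day 10 (adjusted p 0.998). Ina, internexin, stood at 347 and 236 (adjusted p 0.0914).

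Of the 26 genes of the growing axon, 11 fell and none rose, beside 2.75% of all genes tested that fell. Their median difference was -0.56, beside -0.05 over all genes tested. Gap43, the growth cone protein, was at 1185, 1398, 1266, 1337 and 1472 RPKM at day 2 and 1140.2, 1301, 1035 and 868 at day 5, and dropped to 417, 413, 661 and 435 at day 10. Every day 10 mouse was below every younger mouse, with a fall of 1.49 ± 0.16 (SE) on the log2 scale (adjusted p 8.35e-05). Tubb2b, a beta tubulin of young neurons, was at 44.1, 41.5, 30.6, 40.1 and 32.4 RPKM at day 2, 60.03, 28.5, 34.9 and 30.8 at day 5 and 4.44, 6.33, 13.4 and 7.39 at day 10. Days 2 and 5 overlapped and day 10 lay below both, for a fall of 2.20 ± 0.29 (SE) on the log2 scale (adjusted p 4.22e-04) from day 2. The microtubule protein Dcx (doublecortin) fell by 2.06 (adjusted p 7.53e-04), the actin-linked proteins Marcks and Marcksl1 by 1.71 (adjusted p 1.85e-04) and 1.41 (adjusted p 1.85e-04), and Tubb5 by 0.68 (adjusted p 0.00812). Crmp1, Dpysl3, Dpysl4 and Dpysl5, which are collapsin response mediators, fell by 1.68, 0.91, 1.41 and 1.42 (adjusted p 9.68e-05, 0.00791, 0.00164 and 0.00125). Stmn1, stathmin, fell by 1.89 (adjusted p 0.0392) with overlapping mouse values and lost its call without any 1 of mice 28, 240, 244, 247, 252 or 253 (adjusted p 0.0707 to 0.132). The other 10 kept theirs without any 1 mouse.

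Of 22 tested regulators of young neurons and imprinted genes, 5 fell and none rose (22.7% beside 5.4% over all genes tested). Nnat, neuronatin, an imprinted membrane protein, was at 506, 532, 234.4, 375 and 332 RPKM at day 2, 803, 673, 541 and 336 at day 5 and 68.4, 53.2, 185.7 and 117.5 at day 10. At day 5 mouse 75 lay within the range of day 2 and the others above it, and all day 10 mice lay below; the fall from day 2 was 1.99 ± 0.35 (SE) on the log2 scale (adjusted p 0.00309). Cdkn1c was at 45.3, 31.1, 13.96, 36.3 and 25.9 RPKM at day 2, 29.8, 23.4, 13.2 and 20.2 at day 5 and 1.74, 0, 0.382 and 2.50 at day 10. Zfp57, a zinc finger protein that guards imprints, fell by 2.64 (adjusted p 1.85e-04), and Sox4, a factor of newborn neurons, by 1.85 (adjusted p 0.00539). Mycn fell by 2.10 (adjusted p 0.0267), a call that was lost without any 1 of mice 14, 244, 247 or 253 (adjusted p 0.0569 to 0.0952).

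Among 18 transcription factors of motor neurons and the hindbrain, 3 fell and 1 rose (22.2% beside 5.4% over all genes tested). Isl1, which with its partners sets motor neuron identity, was at 187.6, 309, 199.1, 261 and 255.4 RPKM at day 2, 193.6, 252.6, 189.8 and 180.04 at day 5 and 106.1, 131, 95.7 and 135 at day 10. Day 10 lay below both earlier ages, and Isl1 fell by 1.04 ± 0.18 (SE) on the log2 scale (adjusted p 0.00317). Tbx2 fell by 1.22 (adjusted p 0.0119). Isl2 rose by 1.93 (adjusted p 0.0298) from a mean of 0.947 to 5.84 RPKM, a call that was lost without any 1 of mice 26, 240, 244, 247, 252, 253 or 254 (adjusted p 0.0524 to 0.0764).

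Of 8 tested genes of acetylcholine signalling, 2 rose and none fell, beside 2.64% of all genes tested that rose. Chrm2, the muscarinic receptor M2, was at 12.1, 13.2, 10.9, 8.997 and 9.53 RPKM at day 2, 7.90, 21.0, 14.8 and 17.96 at day 5 and 38.2, 35.1, 28.97 and 29.6 at day 10, with all day 10 mice above all younger ones, and rose by 1.51 ± 0.27 (SE) on the log2 scale (adjusted p 0.00331). Ache, acetylcholinesterase, was higher by 0.73 (adjusted p 0.0233), a call lost without any 1 of mice 252, 253 or 254 (adjusted p 0.0579 to 0.0683). Chat was at 18.3, 4.62, 17.3, 11.6 and 10.4 RPKM at day 2, 33.8, 9.31, 21.2 and 18.3 at day 5 and 28.997, 28.7, 24.2 and 35.7 at day 10. Its day 10 mice were all above the day 2 mice, but the difference of 1.29 ± 0.38 (SE) did not pass (adjusted p 0.0592). It did pass under 8 of its 25 alternatives, among them quantile normalization and trimmed mean scaling, with adjusted p over all of them from 0.0109 to 0.157.

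Genes that are used to tell motor neuron types apart rose in 5 of 19 cases and fell in none (26.3% beside 5.4% over all genes tested). Differences were positive in only 9 of the 19, with a median of -0.02 beside -0.05 over all genes tested, so the list did not rise as a whole. Spp1, osteopontin, a marker of alpha motor neurons, was at 37.1, 59.2, 20.1, 28.1 and 32.4 RPKM at day 2, 32.0, 87.6, 48.7 and 79.3 at day 5 and 204.4, 200.3, 69.8 and 133 at day 10, a rise of 2.04 ± 0.37 (SE) on the log2 scale (adjusted p 0.00411). Day 10 lay above day 2 in every mouse, and mouse 253 of day 10 fell within the range of day 5. Sv2b, a synaptic vesicle protein, rose by 0.92 (adjusted p 0.0107). Chodl, chondrolectin, a marker of fast motor neurons, was higher by 0.87 (adjusted p 0.0234) and was lost without any 1 of mice 240, 247, 252 or 253 (adjusted p 0.0528 to 0.0667). Mmp9, the protease of the most fatigable fast motor neurons, was at 3.17, 0.768, 1.19, 22.6 and 8.59 RPKM at day 2 and 22.1, 14.8, 26.8 and 24.5 at day 10. The groups overlapped through mouse 240, and the rise of 2.13 (adjusted p 0.0435) was lost in 11 of the 13 fits without 1 mouse, at adjusted p up to 0.117.

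Sodium channels had the largest share of called members among the 30 lists (75.0% beside 5.4% over all genes tested): 5 of 12 tested members rose and 4 fell. Scn3b, an accessory subunit of immature neurons, was at 61.4, 44.3, 31.1, 44.4 and 54.5 RPKM at day 2, 18.6, 33.3, 26.3 and 27.0 at day 5 and 4.14, 6.14, 7.18 and 7.17 at day 10. It fell by 2.74 ± 0.25 (SE) on the log2 scale (adjusted p 2.59e-05), with no overlap of day 10 and the younger ages. Of the other accessory subunits, Scn2b rose by 1.25 (adjusted p 0.00606), beside Scn4b above. Among the pore-forming subunits Scn1a rose by 1.14 (adjusted p 0.0119), from a mean of 12.6 to 28.2 RPKM. Scn8a, the main subunit of mature nodes, was at 31.4, 36.1, 37.4, 29.2 and 40.1 RPKM at day 2 and 46.5, 49.2, 79.01 and 68.1 at day 10, without overlap, and did not pass (0.76 ± 0.22 SE, adjusted p 0.0539), though it did under 6 of its alternatives, with adjusted p over all of them from 0.0266 to 0.207. The fetal subunit Scn3a (0.99, adjusted p 0.0254), Scn9a (1.09, adjusted p 0.0322) and the channel partner Fgf13 (0.66, adjusted p 0.0292) were lower, and the partner Fgf12 (0.88, adjusted p 0.0297) was higher. Those last 4 calls were lost in 5 to 7 of the 13 fits without 1 mouse, at adjusted p of up to 0.1001.

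Of 55 tested potassium channel genes, 10 rose and 1 fell (20.0% beside 5.4% over all genes tested). Kcna1, the Kv1 subunit beside the nodes, was at 13.6, 7.72, 15.1, 8.19 and 11.4 RPKM at day 2, 17.9, 14.2, 34.6 and 32.8 at day 5 and 52.8, 51.2, 62.7 and 62.7 at day 10. Only mouse 34 of day 5 fell within the range of day 2, day 10 stood above all, and the rise was 2.29 ± 0.29 (SE) on the log2 scale (adjusted p 2.50e-04). Kcnab2, the beta subunit that carries Kv1 channels to the axon, was at 14.2, 24.7, 11.6, 13.3 and 21.4 RPKM at day 2 and 54.9, 61.4, 108.6 and 69.3 at day 10, and rose by 2.05 ± 0.30 (SE) on the log2 scale (adjusted p 7.54e-04). In both genes the day 10 mice exceeded every younger mouse. The leak channels Kcnk1 and Kcnk3 rose by 1.95 (adjusted p 0.00363) and 1.19 (adjusted p 0.0110). Together with Kcng4, these 5 kept their call without any 1 mouse. Kcnc1, Kcns3 and Kcnab1 (higher) and Kcnip1 (lower) did not, with adjusted p up to 0.139.

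Of 19 calcium channel subunits, 3 fell and 1 rose (21.1% beside 5.4% over all genes tested). Cacnb3, a beta subunit, was at 35.6, 20.5, 33.9, 35.3 and 45.4 RPKM at day 2, 28.6, 20.8, 24.4 and 20.7 at day 5 and 5.91, 10.9, 15.4 and 7.51 at day 10 and fell by 1.72 ± 0.28 (SE) on the log2 scale (adjusted p 0.00211). Its day 10 mice all lay below the younger ones. Cacng4, a gamma subunit that also traffics AMPA receptors, fell by 1.83 (adjusted p 0.00288). The fall of Cacna2d1 and the rise of the T-type channel Cacna1g were lost in 10 and 11 of the 13 fits without 1 mouse, at adjusted p up to 0.121 and 0.142.

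Of 19 tested genes for GABA, glycine and chloride, 3 rose and 1 fell (21.1% beside 5.4% over all genes tested). Of 15 ionotropic glutamate receptor subunits 1 rose and none fell, which is 6.67% beside 5.4% over all genes tested and thus near the background. Glra1, the adult alpha subunit of the glycine receptor, was at 16.2, 8.91, 5.47, 13.4 and 11.7 RPKM at day 2, 20.6, 8.001, 26.6 and 25.4 at day 5 and 52.2, 49.0, 86.98 and 50.1 at day 10. Days 2 and 5 overlapped, all day 10 mice lay above them, and the rise was 2.35 ± 0.36 (SE) on the log2 scale (adjusted p 0.00107). Glrb, the glycine receptor beta subunit, rose by 0.93 (adjusted p 0.0170), which was lost without mouse 247 (adjusted p 0.0696). Gabrg3 fell by 1.35 (adjusted p 0.0230), which was lost without any 1 of mice 244, 247, 252 or 253 (adjusted p 0.0523 to 0.0762). Slc12a5, the chloride exporter KCC2, had means of 75.2 RPKM at day 2 and 87.3 at day 10 and did not pass (adjusted p 0.706). The single glutamate receptor gene past the threshold was Gria3 (1.18, adjusted p 0.0423 higher), and its call was lost in 11 of the 13 fits without 1 mouse, at up to 0.123.

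Of 42 tested genes of transmitter release, 9 rose and 5 fell (33.3% beside 5.4% over all genes tested). The synaptotagmin Syt4 was at 741, 959, 852, 771 and 667 RPKM at day 2, 563, 652, 438 and 532 at day 5 and 391, 359, 194.4 and 191.7 at day 10, without overlap of the ages, and fell by 1.55 ± 0.22 (SE) on the log2 scale (adjusted p 6.06e-04). Syt1, the sensor of fast release in the forebrain, fell by 1.54 (adjusted p 7.53e-04) and Stx1a, a syntaxin, by 1.57 (adjusted p 8.88e-04). Syt2, the sensor of fast hindbrain and neuromuscular synapses, was at 33.3, 41.8, 38.2, 38.5 and 35.1 RPKM at day 2, 44.2, 44.7, 62.2 and 59.95 at day 5 and 72.8, 70.7, 95.2 and 75.8 at day 10. Its ages did not overlap either, and it rose by 1.05 ± 0.18 (SE) on the log2 scale (adjusted p 0.00263). Vamp1, the synaptobrevin of the neuromuscular junction, was at 171.6, 137, 154, 150.5 and 133 RPKM at day 2, 205.6, 248.998, 259.5 and 254.6 at day 5 and 340.5, 311, 467 and 339.9 at day 10 and rose by 1.27 ± 0.15 (SE) on the log2 scale (adjusted p 1.89e-04), again without overlap. Rph3a, Syt11 and Syngr1 rose by 1.38 (adjusted p 4.49e-04), 1.02 (adjusted p 0.00461) and 1.13 (adjusted p 0.00910). Of the 14 calls, 9 held without any 1 mouse. Those that did not were Syp, Syn1 and Cplx1 (higher) and Unc13b and Syt5 (lower), with adjusted p up to 0.114.

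In the matrix around the cell, 3 of 21 tested genes rose and none fell (14.3% beside 5.4% over all genes tested). Hapln4, the link protein of nets around brainstem neurons, was at 4.57, 7.19, 14.9, 3.999 and 8.45 RPKM at day 2, 16.4, 22.99, 32.0 and 24.3 at day 5 and 57.9, 77.99, 94.8 and 78.6 at day 10. The 3 ages were stepwise without overlap, and the rise was 3.26 ± 0.32 (SE) on the log2 scale (adjusted p 4.14e-05). Hapln1 and Timp2 were higher by 1.46 (adjusted p 0.0355) and 0.64 (adjusted p 0.0340), calls that were each lost in 7 of the 13 fits without 1 mouse, at up to 0.122. Guidance and adhesion genes, a list of 73, showed 5 falls and 1 rise, which is 8.22% beside 5.4% over all genes tested. Their median difference was -0.37, beside -0.05 over all genes tested. Ncam1, the neural adhesion molecule, was at 47.8, 54.9, 23.8, 39.6 and 36.96 RPKM at day 2 and 18.5, 18.7, 18.9 and 14.7 at day 10 and fell by 1.11 ± 0.24 (SE) on the log2 scale (adjusted p 0.0128). The netrin receptor Unc5c and the ephrin receptor Epha7 fell by 1.29 (adjusted p 0.0159) and 1.48 (adjusted p 0.0188); the first was lost without mouse 247 (adjusted p 0.0581) and the second without any 1 of mice 253 or 254 (adjusted p 0.0542 to 0.0667). The falls of Cdh8 and Ephb1 and the rise of Nfasc, neurofascin, were lost in 8 to 11 of the fits without 1 mouse, at up to 0.139.

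Of 27 genes of glycolysis and lactate, 3 rose and 2 fell (18.5% beside 5.4% over all genes tested). Ldha, the lactate dehydrogenase subunit that favours lactate production, was at 347, 335, 319.5, 374 and 361 RPKM at day 2, 348, 340.3, 285 and 273 at day 5 and 154, 190.7, 166.6 and 219.4 at day 10. Only day 10 stood apart, and Ldha fell by 0.93 ± 0.14 (SE) on the log2 scale (adjusted p 0.00119). Ldhb, the subunit that favours pyruvate, was higher by 0.59 (adjusted p 0.0209), a call that was lost without any 1 of mice 253 or 254 (adjusted p 0.0503 to 0.0699). Pfkp, the platelet-type phosphofructokinase, fell by 1.04 (adjusted p 0.00278), whereas Eno2, the neuronal enolase, rose by 0.94 (adjusted p 0.00311). Aldoa, an aldolase, was higher by 0.68 (adjusted p 0.0198) and was lost without any 1 of mice 253 or 254 (adjusted p 0.0570 to 0.0651). Of 28 genes of cholesterol supply 2 rose and none fell, a share (7.14%) near the background of 5.4%, and differences were positive in 13 of the 28, with a median of -0.10. Acly, which makes cytosolic acetyl-CoA, was at 232.5, 186.6, 183.1, 178.1 and 191.7 RPKM at day 2, 191.8, 250.2, 229.3 and 211.05 at day 5 and 426, 394, 446 and 378 at day 10 and rose by 1.08 ± 0.14 (SE) on the log2 scale (adjusted p 2.94e-04). Of 77 nuclear genes of oxidative phosphorylation 4 rose and none fell, a share near the background. Differences were positive in 62 of the 77, with a median of 0.22 beside 6707 of 14302 positive and a median of -0.05 over all genes tested. All 4 (Ndufa4, Ndufa2, Ndufc1 and Atp5k) lost their call in some fits without 1 mouse, at up to 0.120. Ribosomal protein genes gave 2 falls among 76, which is also near the background.

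Calcium-binding proteins split, with 3 of 25 higher and 3 lower (24.0% beside 5.4% over all genes tested). S100b, best known from glia but also present in motor neurons, was at 162.6, 224.3, 237.1, 197.8 and 239 RPKM at day 2, 388, 316, 429.8 and 489 at day 5 and 708, 753, 779.7 and 718 at day 10. The steps were clear of each other, and S100b rose by 1.81 ± 0.16 (SE) on the log2 scale (adjusted p 1.79e-05). Hpcal1, a neuronal calcium sensor, was at 174.99, 170.2, 162, 163.3 and 162 RPKM at day 2 and 74.1, 45.1, 69.8 and 73.9 at day 10 and fell by 1.35 ± 0.18 (SE) on the log2 scale (adjusted p 4.49e-04). Calm3 and parvalbumin (Pvalb) were higher, and calbindin (Calb1) and Ncald lower, with calls lost in 3 to 11 fits without 1 mouse, at up to 0.159. A single gene (12.5%) of the 8 of the thyroid hormone response rose, and the median difference of the list was 0.03. It was Klf9, a direct target of the hormone receptor, at 2.48, 3.26, 3.42, 1.67 and 3.25 RPKM at day 2, 5.71, 5.34, 7.85 and 7.94 at day 5 and 10.9, 16.5, 30.9 and 16.4 at day 10, a rise of 2.30 ± 0.32 (SE) on the log2 scale (adjusted p 5.92e-04) with no overlap of the 3 ages.

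Of 19 receptors for trophic factors 1 rose and 2 fell (15.8% beside 5.4% over all genes tested). Ngfr, the p75 neurotrophin receptor that motor neurons lose after birth, was at 43.7, 45.8, 54.3, 50.5 and 40.7 RPKM at day 2, 62.6, 78.1, 46.6 and 34.7 at day 5 and 9.12, 7.19, 29.4 and 9.84 at day 10. Days 2 and 5 overlapped, day 10 was below, and the fall was 1.89 ± 0.33 (SE) on the log2 scale (adjusted p 0.00334). Fgfr1 rose by 1.58 (adjusted p 0.00403), and the fall of Gfra2 (1.35, adjusted p 0.0405) was lost in 8 of the 13 fits without 1 mouse, at up to 0.130. Of 39 chromatin genes 2 rose and 1 fell, a share (7.69%) near the 5.4% over all genes tested. The histone deacetylase Hdac11 rose by 0.87 (adjusted p 0.00558) and the macroH2A gene H2afy2 fell by 1.67 (adjusted p 0.00375). Dnmt3a was higher by 1.03 (adjusted p 0.0299), which was lost without any 1 of mice 26, 240, 244, 247, 252 or 253 (adjusted p 0.0556 to 0.101). B2m, the shared chain of MHC class I, was the 1 fall among 11 genes of that list, at 223.4, 207.5, 183.2, 240.3 and 294 RPKM at day 2, 213.2, 205.05, 156.6 and 276 at day 5 and 84.1, 76.7, 89.6 and 108 at day 10; it fell by 1.34 ± 0.19 (SE) on the log2 scale (adjusted p 5.92e-04). Among 15 immediate early genes 1 rose (Arc), and among 21 cell cycle genes 1 fell (Mcm6). These shares (6.67% and 4.76%) are near the 5.4% over all genes tested, and the single fall in the MHC class I list made up 9.09%. Arc lost its call in 9 and Mcm6 in 2 of the fits without 1 mouse, at up to 0.130 and 0.0798.

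**Figure D3:**
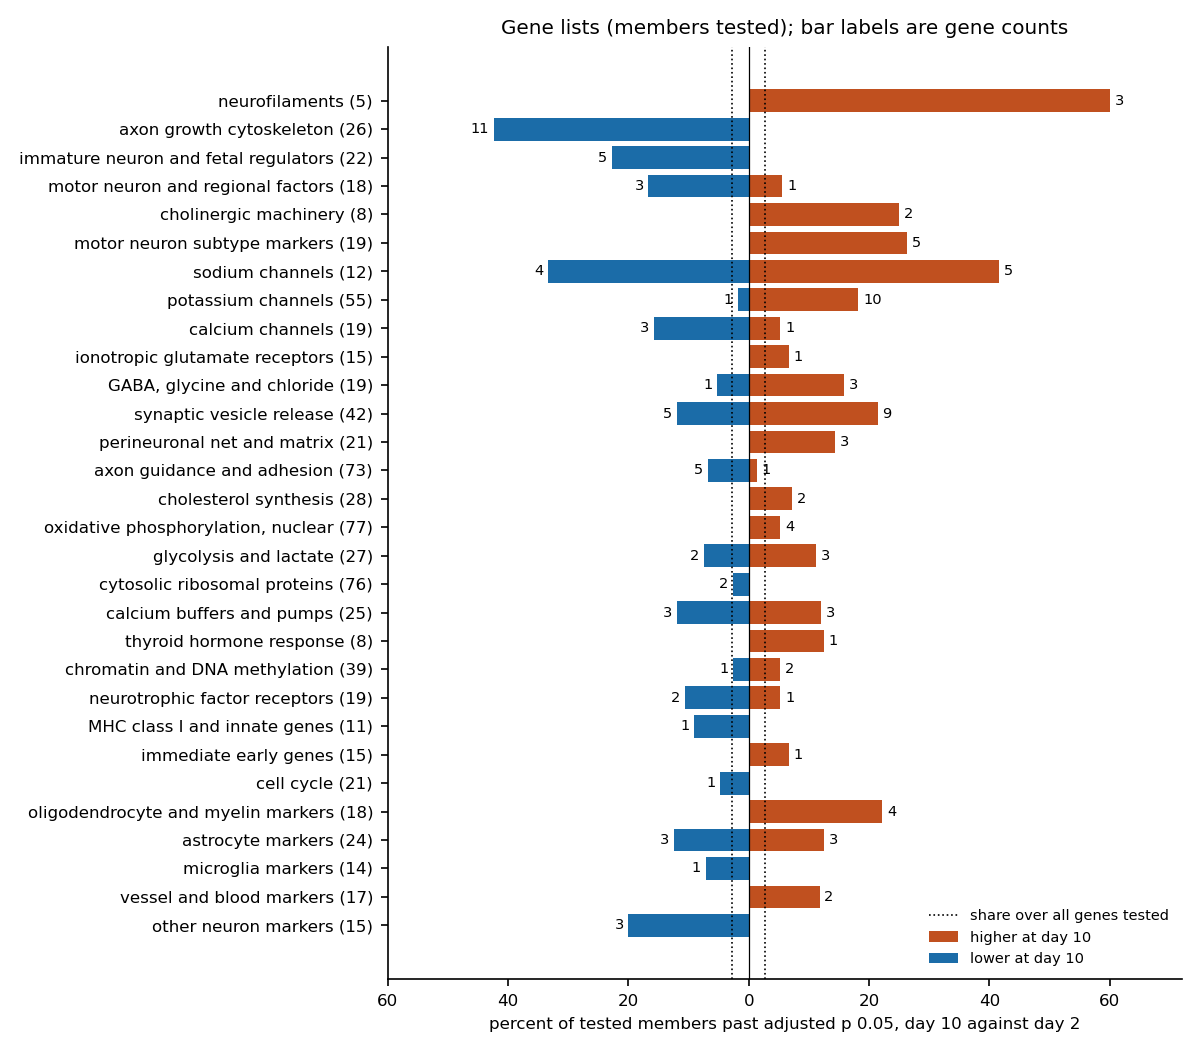
Percent of the tested members of 30 gene lists that were higher (right) or lower (left) at day 10 than at day 2, by limma with an adjusted p under 0.05. Bar labels are gene counts, numbers in brackets are members tested, and dotted lines mark the shares over all genes tested (2.64% higher and 2.75% lower). The axon growth list has falls only and the neurofilament list rises only.

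Markers of cells beside the motor neurons moved with age. Of 18 tested markers of oligodendrocytes and myelin, 4 rose and none fell (22.2% beside 5.4% over all genes tested). The summed level of the 26 listed genes was 47.7 to 97.9 RPKM at day 2, 119.8 to 887 at day 5 and 314 to 371 at day 10. Mbp, a main protein of myelin, was at 4.24, 18.7, 7.51, 2.45 and 18.3 RPKM at day 2, 265, 104.9, 40.3 and 41.5 at day 5 and 112.1, 134, 171.04 and 146 at day 10 (3.97, adjusted p 6.61e-04 higher). Mobp rose by 3.68 (adjusted p 0.0128). At day 5 both were highest in mouse 29, which also held the highest sum of microglial markers at that age (193.5 RPKM, against 35.99 to 48.04 in the other 3). Mog was higher by 2.69 (adjusted p 0.0353) at day 10, a call that was lost in 7 of the 13 fits without 1 mouse, at up to 0.107. Of 17 vessel and blood markers 2 rose (11.8% beside 5.4% over all genes tested), both known from fibroblasts. Dcn, decorin, was at 0, 12.97, 0.102, 0.0806 and 0.0822 RPKM at day 2, 6.86, 4.12, 2.39 and 30.2 at day 5 and 79.6, 59.8, 17.1 and 29.97 at day 10 (4.51, adjusted p 0.00320 higher), and Lum, lumican, rose by 1.75 (adjusted p 0.00760). The part of such cells in the rise of the myelin and fibroblast genes was not tested.

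Astrocyte markers gave 3 rises and 3 falls among 24, beside 2.64% higher and 2.75% lower over all genes tested. The sum of the astrocyte list was 2777 to 3346 RPKM at day 2 and 3134 to 3675 at day 10. Levels within the list were uneven. Gfap and Aqp4 were at most 5.17 and 11.3 RPKM in any mouse, whereas Fabp7 was at 282 to 614 at day 2 and Clu at 435 to 476 at day 10. The part of astrocytes in these levels was not tested. Clu, clusterin, and S100b rose (Clu by 0.93, adjusted p 0.00376). Fabp7, a lipid-binding protein of radial glia, was at 495, 391, 282, 474 and 614 RPKM at day 2, 429, 276, 255.2 and 210.95 at day 5 and 76.01, 72.2, 65.3 and 80.1 at day 10. It fell by 2.56 ± 0.23 (SE) on the log2 scale (adjusted p 1.87e-05), and the gap junction gene Gja1 fell by 1.40 (adjusted p 0.00336). The third fall among these markers was that of Vim, given above among the largest falls. Glul was higher by 0.87 (adjusted p 0.0498), lost in 11 fits without 1 mouse at up to 0.164. Microglial markers summed to 39.3 to 199.8 RPKM at day 2 and 16.2 to 51.3 at day 10. All 14 tested markers had a negative difference, with a median of -1.17 beside -0.05 over all genes, of which 6707 of 14302 were positive. None of the 14 rose and 1 (7.14%, beside 2.75% lower over all genes) fell. This was Ly86, by 2.76 (adjusted p 0.0323), which was lost in 7 fits at up to 0.0982.

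The 29 listed markers of other neurons summed to 802 to 2081 RPKM at day 2, 469.6 to 892 at day 5 and 412 to 616 at day 10. No mouse of day 10 reached the lowest of day 2, and the median difference of the 15 tested was -0.70, with 4 of them positive. Npy, Vip and Penk were above 0 in every day 2 mouse, at 24.9 to 95.5, 120.1 to 331 and 145 to 284 RPKM. Other markers of this list were high in single libraries. The hypothalamic peptide genes Avp, Oxt, Hcrt and Pmch were at 74.6, 69.5, 69.2 and 74.5 RPKM in mouse 240 and at 114, 101.2, 116.1 and 62.9 in mouse 244, both of day 2. In the other 11 mice none of them exceeded 11.3. The choroid plexus gene Ttr was at 244.9 RPKM in mouse 26 of day 2 and at most 1.80 in any other. Mouse 14 of day 2 held 30.7 RPKM of the glutamate transporter Slc17a6, against at most 10.6 elsewhere. Of the 15 tested, 3 fell (20.0% beside 5.4% called over all genes tested): Npy above, Vip by 1.39 (adjusted p 0.0207) and Trh by 2.65 (adjusted p 0.0486). Vip was lost without any 1 of mice 247 or 253 (adjusted p 0.0747 to 0.0774), and Trh in 11 fits without 1 mouse, at up to 0.126. The part of other neurons in the changes from day 2 to day 10 was not tested.

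**Figure D4:**
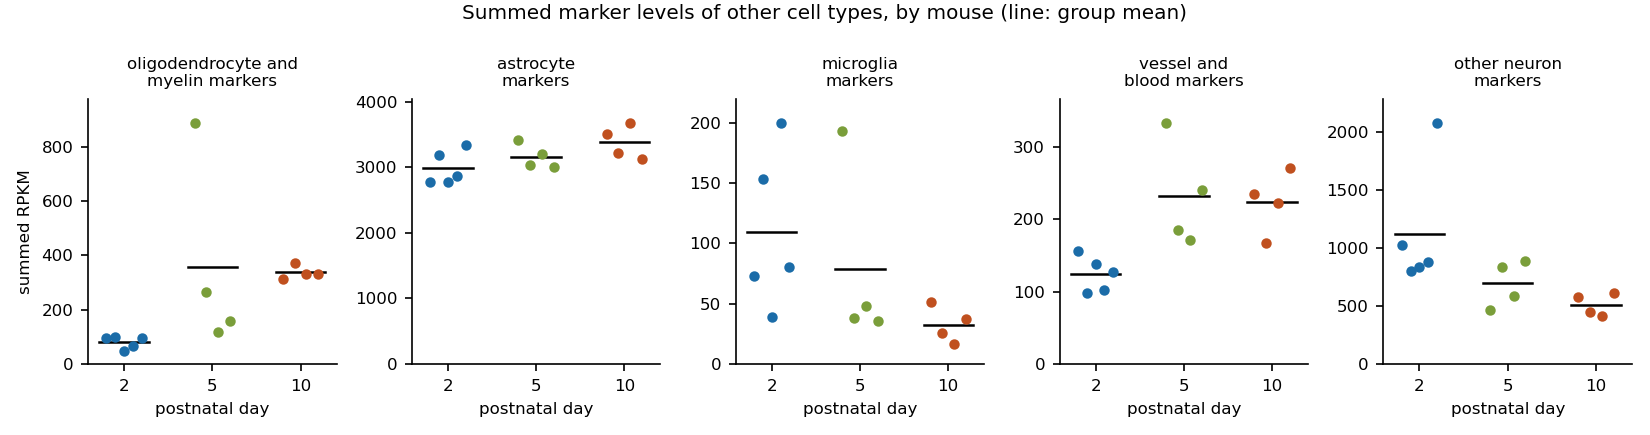
Summed RPKM (vertical axes, linear from 0) of 5 lists of markers for cells other than motor neurons, by postnatal day. Points are mice and lines are group means. The myelin sum is higher at day 10 (314 to 371) than at day 2 (47.7 to 97.9), with mouse 29 of day 5 at 887.

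The capture numbers in the labels divide the day 2 group, into mice 14, 26 and 28 with low numbers and mice 240 and 244 with high ones, and the latter adjoin those of the day 10 mice. All day 5 mice had low numbers and all day 10 mice high ones. Age and capture number therefore cannot be told apart between day 5 and day 10. What the numbers stand for is not given in the labels. With mice 240 and 244 alone as day 2, 436 genes passed, among them 312 of the 772. With mice 14, 26 and 28 alone, 487 passed, among them 406. Of the 24 largest rises and falls, 17 kept their call in the first subset and 22 in the second. Amhr2, Cbx6_ann3, Grp, Lgals3, Mfap2 and Mobp were among those that lost it in the first, at adjusted p up to 0.364, and Dmkn and Mfap2 in the second, at up to 0.0868. Without mice 26 and 28, which stood apart on the components, 622 genes passed, among them 476 of the 772; this subset was chosen after seeing the data, and in it Cbx6_ann3, Mfap2 and Mobp were among 4 of the 24 that lost their call, at up to 0.124. No call of the 772 changed its direction in any of the 3 subsets.

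Day 5 gave few calls against day 2. From day 2 to day 5, 1 of 14302 genes (0.00699%) passed. Named because it was the only one, it was Cdc16, a subunit of the anaphase-promoting complex, at 151, 53.1, 127.8, 118.4 and 101.8 RPKM at day 2, 23.4, 31.2, 25.01 and 26.8 at day 5 and 31.03, 27.6, 31.9 and 30.8 at day 10. It fell by 1.94 ± 0.25 (SE) on the log2 scale (adjusted p 0.0146) from day 2 to day 5. The call was lost without any 1 of mice 28, 240, 244, 29 or 71. At an unadjusted p under 0.05 there were 1211 genes. From day 5 to day 10, 154 genes (1.08%) passed, 58 (0.406%) higher and 96 (0.671%) lower, and this number moved when 1 mouse was left out. It was lowest without mouse 34 (57), mouse 29 (65), mouse 252 (71), mouse 247 (78), mouse 253 (90) or mouse 254 (30 higher and 71 lower). The comparisons share the day 5 mice, and the difference between both numbers was not tested.

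Of the 378 genes that rose from day 2 to day 10, 347 had a day 5 mean between the means of the other ages. A gene called for a large difference between the outer ages will mostly have its day 5 mean between them, so these counts are a description with no test. By day 5 they had covered a median of 39.8% of the log2 distance (quartiles 21.2% and 56.4%). Of the 394 that fell, 356 lay between, with a median of 31.1% (17.6% and 48.1%). Examples picked after their values were seen are Mbp, Dpysl4, Hapln1 and Glrb, whose day 5 values lay nearer to those of day 10. Those of Tubb2b, B2m, Ngfr and Acly lay nearer to day 2. Among the fit's contrasts of day 5 with the mean of days 2 and 10, 1 gene (0.00699%) passed, and 1001 did at an unadjusted p under 0.05. That gene was Kcng4, which lay 2.29 ± 0.26 (SE) below the midpoint at day 5 (adjusted p 0.00288), being listed at 0 in all 4 mice of that age. It had passed the filter on low values through its day 10 mice alone. Kcng4 lost this call with a pseudocount of 0.1 or a filter at 5 RPKM, where 0 genes passed.

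The same control mice also gave other motor populations, so the change from day 2 to day 10 was compared between them. Hypoglossal motor neurons (12 mouse samples) move the tongue, lumbar motor neurons (13) move the legs, and vagus motor neurons (11) are visceral. The test was of the difference between the changes, in a fit without and a fit with the mouse as a block, since mouse numbers mark the same animal. A positive difference means that the gene rose more, or fell less, in facial neurons. Against hypoglossal neurons 0 of 16015 genes passed by limma (0%), in both fits, with 761 at an unadjusted p under 0.05 and 909 with the block. In a fit of all 6 populations 18 passed, and up to 4 did when 1 mouse was left out (mouse 28). Hypoglossal levels of 3 of the genes with large facial changes did not overlap between the ages either. Kcng4 was at 0 to 0.177 RPKM at day 2 and 4.37 to 15.0 at day 10, Crabp2 at 32.2 to 174.7 and 0 to 12.7, and Vim at 66.6 to 127.7 and 6.08 to 21.3. Grp was at 6.53, 0, 0.171 and 0 RPKM in the 4 day 2 hypoglossal samples, and its difference of -4.38 ± 1.18 (SE) did not pass (adjusted p 0.455).

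Against lumbar neurons 47 of 16027 genes (0.293%) differed in their change, 32 (0.2%) with a more positive change in facial neurons and 15 (0.0936%) with a more negative one. With quantile normalization there were 39, of which 22 were more positive. The block left 18 (0.112%), 13 (0.0811%) more positive and 5 (0.0312%) more negative. Leaving out 1 mouse gave 12 (mouse 247) to 42, with at most 30 in every such fit other than those without mouse 14 (42) or 26 (37). Arhgap36, which is related to GTPase-activating proteins, was at 71.9, 66.4, 104.7, 34.96 and 48.8 RPKM in the facial samples at day 2 and 358, 373, 426 and 360.1 at day 10. The lumbar samples were already at 345, 657, 486 and 347 at day 2 and stood at 421, 472, 425 and 512 at day 10. The difference in change was 2.56 ± 0.34 (SE; adjusted p 6.78e-04, and 0.00796 with the mouse as a block). Calb2, calretinin, was at 3.24 to 14.2 RPKM at day 2 and 105.8 to 165.4 at day 10 in lumbar neurons, and at 0.193 to 10.98 and 0 to 7.68 in facial neurons. The difference was -4.58 ± 0.79 (SE; adjusted p 0.00748, and 0.0478 with the mouse as a block). Ngfr was at 32.4 to 45.1 RPKM at day 2 and 0 to 2.44 at day 10 in lumbar neurons, and at 40.7 to 54.3 and 7.19 to 29.4 in facial neurons, a difference of 2.78 ± 0.50 (SE; adjusted p 0.0114, and 0.0291 with the mouse as a block). Without mouse 247 it missed the threshold (adjusted p 0.0521). Tmem132c, a membrane protein, was at 59.6 to 87.6 RPKM at day 2 and 12.7 to 20.6 at day 10 in lumbar neurons, against 14.5 to 40.9 and 24.3 to 85.5 in facial neurons (2.82 ± 0.43 SE, adjusted p 0.00182, and 0.0291 with the mouse as a block). Arhgap9, Crip1, Grp and the GTPase Rem2 passed without the block and not with it. Their differences were -3.45 ± 0.50 (SE; adjusted p 0.00123, and 0.1004 with the mouse as a block), -5.78 ± 1.14 (SE; adjusted p 0.0267, and 0.0676 with the mouse as a block), -4.47 ± 0.96 (SE; adjusted p 0.0464, and 0.134 with the mouse as a block) and 2.82 ± 0.60 (SE; adjusted p 0.0464, and 0.275 with the mouse as a block). Crip1 and Grp were at or below 13.3 and 1.38 RPKM in the lumbar samples of both ages.

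Against vagus neurons 51 of 16732 genes (0.305%) differed, 20 (0.12%) with a more positive and 31 (0.185%) with a more negative change in facial neurons. The block left 29 (0.173%), 8 (0.0478%) more positive and 21 (0.126%) more negative. Fits with 1 mouse left out gave 32 (mouse 252), 33 (mouse 247) or up to 60, and a fit of all 6 populations gave 88, of which 53 were more positive. Some of the genes with the largest facial falls were high at both ages in the vagus samples. Crabp2 was at 248.2, 152 and 353 RPKM in the 3 day 2 vagus samples and 329, 287, 248.4 and 317 in the 4 of day 10. Its change differed from that of facial neurons by -5.94 ± 0.80 (SE; adjusted p 3.38e-04, and 0.00607 with the mouse as a block). Crip1 was at 95.6, 89.4 and 161.3 RPKM at day 2 and 170.1, 138, 277 and 236 at day 10 in vagus neurons, a difference of -5.57 ± 0.87 (SE; adjusted p 0.00143, and 0.0136 with the mouse as a block). Vim was not among them, at 58.7 to 83.9 RPKM at day 2 and 5.65 to 9.89 at day 10. Of the genes with the largest facial rises, Kcng4 was at most 0.0517 RPKM in the day 10 vagus samples (4.55 ± 0.33 SE, adjusted p 1.50e-08, and 0.00212 with the mouse as a block), and Gm26673 was listed at 0 in all 4 (4.82 ± 0.66 SE, adjusted p 3.38e-04, and 0.00300 with the mouse as a block). Here too Kcng4 passed the filter on low values through the facial day 10 mice alone. It was at most 0.139 RPKM in every other sample of this fit, so its difference is a description. Amhr2, Mbp, Grp and Cckar, a receptor of cholecystokinin at 0.535 to 5.31 RPKM at day 2 and 25.6 to 35.7 at day 10 in vagus neurons and at most 0.0888 in facial ones, passed without the block and not with it. The differences were 4.71 ± 1.004 (SE; adjusted p 0.0375, and 0.205 with the mouse as a block), 4.14 ± 0.78 (SE; adjusted p 0.0107, and 0.158 with the mouse as a block), -5.28 ± 1.07 (SE; adjusted p 0.0221, and 0.155 with the mouse as a block) and -3.21 ± 0.54 (SE; adjusted p 0.00359, and 0.108 with the mouse as a block). The comparisons with hypoglossal, lumbar and vagus neurons share the same facial samples.

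**Figure D5:**
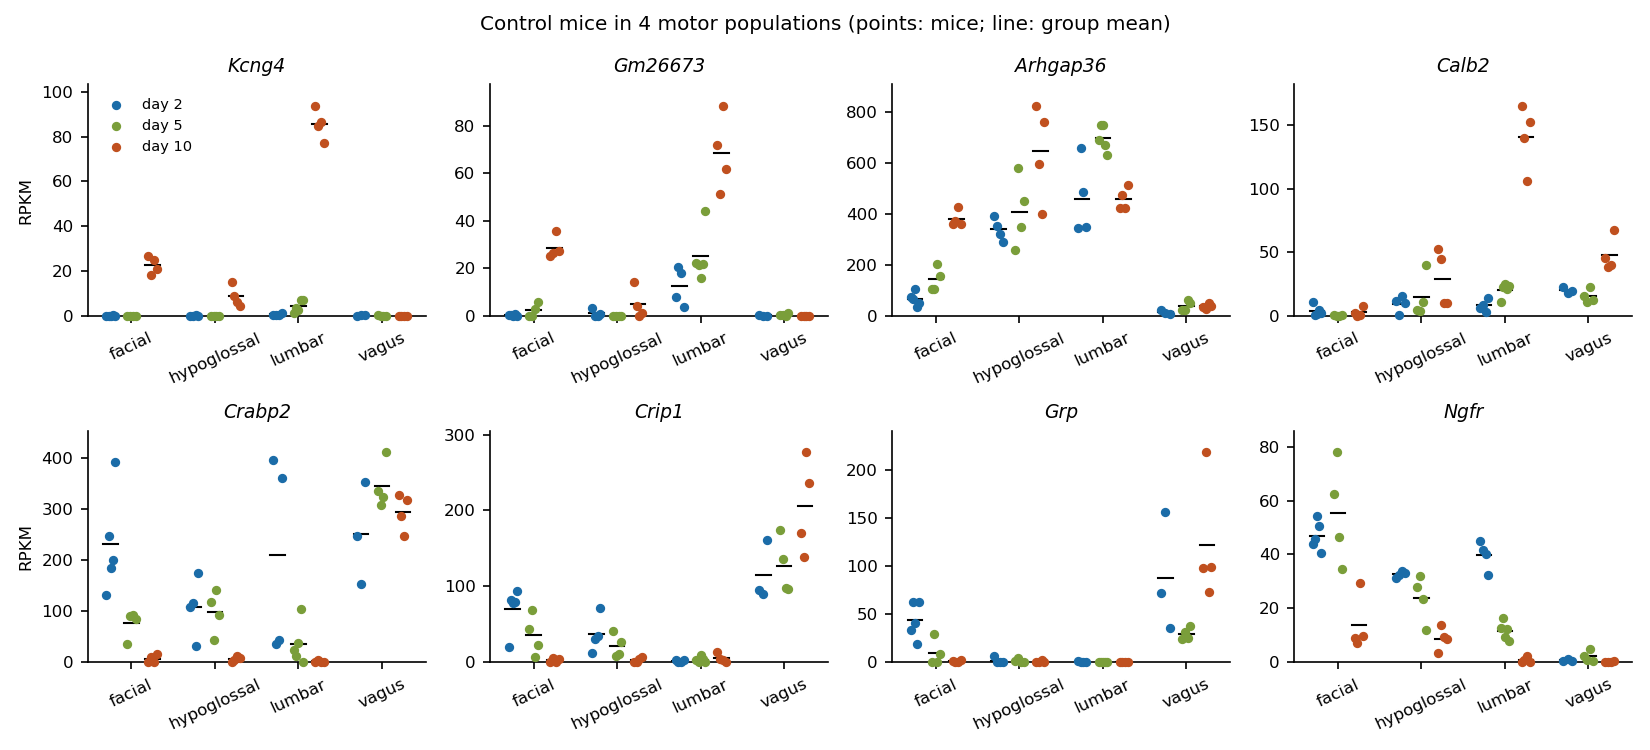
RPKM (vertical axes, linear from 0) of 8 genes in control mice of 4 motor populations at days 2, 5 and 10 (colours). Points are mice and lines are group means. Crabp2 and Crip1 are near 0 at day 10 in facial neurons and remain high in vagus neurons, while Kcng4 at day 10 is at 4.37 or above in facial, hypoglossal and lumbar neurons and near 0 in vagus neurons.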

How the data were processed

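The values are RPKM (reads per kilobase, scaled to library depth), 1 column per library, as deposited by the authors; STAR 2.4.1c and the builds mm10 and hg19 are named, with no role, per the submitters' processing notes. The read counter, the annotation and the use of strand are not given in the sources used here. The gene lists and the samples described were chosen with earlier results of these data known.

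Of 39410 rows, those with at least 1 RPKM in at least 4 of the 13 samples were kept (14302). Values were taken as log2(RPKM + 1) and fitted with limma 3.58.1 (R 4.3.3) with one mean per age, an intensity trend and Benjamini-Hochberg adjustment over all genes tested, two-sided, at an adjusted p of 0.05. Depth was recovered from the smallest step of the values of single-transcript genes; only about 3 in 4 values under 20 reads came within 0.02 of a whole number of reads, so no count test was run. The procedure was tested on simulated data. Named genes are the 12 largest rises and the 12 largest falls among called genes whose mouse values did not overlap and whose mean reached 10 RPKM at the higher age, up to 4 per direction for the contrasts between populations, and members of the gene lists; some members are counted but not reported here by name. Positions are from GENCODE M21 (GRCm38) and promoters from RefSeq.

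Changes were compared between populations in limma, without and with the mouse as a block. The same mouse number marks the same animal, and samples of 1 animal correlated at -0.02 to 0.138 in their deviations from the group means, over 10 to 12 pairs per population. The labels of the lumbar day 5 controls name additional reads from a previous submission; that age enters these contrasts through the spread alone. Alternatives were another pseudocount (0.1), other filters, quantile and trimmed mean scaling, array weights, covariates (genes above 0, and sex as read from sex-linked genes), subsets of the day 2 mice and fits without each mouse.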

Additional observations from a re-analysis of the deposited data

Results flagged for a closer look

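Within an age, 42 of 420 groups of values had a mouse far from the others by Dixon's criterion. Chance meets its cut-offs in about 1 in 20 groups where values are normally distributed. Here it was run on RPKM without a log scale, and many values were 0, so the rate by chance is not known. Some flags, such as that of Kcng4 in mouse 240, mark the only value above 0. Mouse 14 (day 2) stood apart for Hhatl at 4.49, Crip1 at 19.9, Scn3a at 24.6 and Acly at 232.5 RPKM. Mouse 26 (day 2) stood apart for Dcn at 12.97, Amhr2 at 1.36, Kcnk1 at 16.3, Kcns3 at 8.80 and Mog at 2.65 RPKM. Mouse 240 (day 2) stood apart for Kcng4 at 0.139, Mobp at 3.38, Cbx6_ann3 at 44.03 and Tbx2 at 21.3 RPKM. Mouse 244 (day 2) stood apart for the sum of other neuron markers at 2081 RPKM. Mouse 29 (day 5) stood apart for Mobp at 111.9, Crabp2 at 35.6, Stmn1 at 40.6, Cacna2d1 at 51.5, Mog at 13.9, Ly86 at 25.3 and the sum of microglia markers at 193.5 RPKM. Mouse 34 (day 5) stood apart for Dmkn at 28.3 RPKM. Mouse 75 (day 5) stood apart for Dcn at 30.2, Vim at 68.4 and Lum at 0.879 RPKM. Mouse 247 (day 10) stood apart for Isl2 at 5.33 and Glrb at 185.6 RPKM. Mouse 252 (day 10) stood apart for Lgals3 at 0.699, Hpcal1 at 45.1, Clu at 435 and Trh at 1.70 RPKM. Mouse 253 (day 10) stood apart for Crygn at 47.5, Plac8 at 2.24, Nefm at 6787, Gap43 at 661, Gabrg3 at 3.78, Glra1 at 86.98, Cdh8 at 19.96 and Ngfr at 29.4 RPKM. Mouse 254 (day 10) stood apart for Dpysl5 at 27.2, Fgf12 at 52.8 and Ncam1 at 14.7 RPKM. 

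The log2 change from day 2 to day 10 differed between facial and lumbar neurons by limma. The differences, facial minus lumbar, were 2.82 for Tmem132c (adjusted p 0.00182 without and 0.0291 with the mouse as a block), 2.82 for Rem2 (adjusted p 0.0464 without and 0.275 with the mouse as a block), 2.78 for Ngfr (adjusted p 0.0114 without and 0.0291 with the mouse as a block) and 2.56 for Arhgap36 (adjusted p 6.78e-04 without and 0.00796 with the mouse as a block). On the negative side they were -5.78 for Crip1 (adjusted p 0.0267 without and 0.0676 with the mouse as a block), -4.58 for Calb2 (adjusted p 0.00748 without and 0.0478 with the mouse as a block), -4.47 for Grp (adjusted p 0.0464 without and 0.134 with the mouse as a block) and -3.45 for Arhgap9 (adjusted p 0.00123 without and 0.1004 with the mouse as a block). The log2 change from day 2 to day 10 differed between facial and vagus neurons by limma. The differences, facial minus vagus, were 4.82 for Gm26673 (adjusted p 3.38e-04 without and 0.00300 with the mouse as a block), 4.71 for Amhr2 (adjusted p 0.0375 without and 0.205 with the mouse as a block), 4.55 for Kcng4 (adjusted p 1.50e-08 without and 0.00212 with the mouse as a block) and 4.14 for Mbp (adjusted p 0.0107 without and 0.158 with the mouse as a block). On the negative side they were -5.94 for Crabp2 (adjusted p 3.38e-04 without and 0.00607 with the mouse as a block), -5.57 for Crip1 (adjusted p 0.00143 without and 0.0136 with the mouse as a block), -5.28 for Grp (adjusted p 0.0221 without and 0.155 with the mouse as a block) and -3.21 for Cckar (adjusted p 0.00359 without and 0.108 with the mouse as a block). Against vagus neurons Kcng4 passed the filter on low values through the facial day 10 mice alone, so its difference is a description. Calls lost when 1 mouse was left out were those of Rem2, Ngfr, Crip1 and Grp against lumbar neurons and of Amhr2, Mbp and Grp against vagus neurons, at adjusted p of up to 0.202 (Rem2 without mouse 247).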

How the results depend on the processing

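No named gene changed direction under any alternative run, and no called gene did in the fits compared. For day 10 against day 2 (772 genes), the day 2 subsets gave 436 (mice 240 and 244) and 487 (mice 14, 26 and 28), and fits without 1 mouse 472 to 751. The 378 higher and 394 lower genes became 453 and 373 with quantile normalization, 434 and 360 with trimmed mean scaling and 352 and 329 without mouse 14; the higher share of 49.0% became 38.8% with day 2 mice 240 and 244 and 52.6% with mice 14, 26 and 28. For day 10 against day 5 (154), no filter gave 80, array weights 282, and fits without 1 mouse 57 to about 1.6e2. For day 5 against day 2 (1), no filter and sex as a covariate gave 0, all 6 facial groups 4, array weights 5, the subsets 14 (mice 240 and 244), 5 (mice 14, 26 and 28) and 2 (mice 14, 240 and 244, chosen after seeing the data), and fits without 1 mouse 0 to 5. For day 5 off the mean of days 2 and 10 (1), a pseudocount of 0.1 and the stricter filter gave 0, all 6 facial groups 2, mice 240 and 244 as day 2 gave 3, and fits without 1 mouse 1 to 4. With the mouse as a replicate block, the pairing left 0 genes against hypoglossal, 18 against lumbar (47 without it) and 29 against vagus neurons (51 without it), and 8 of the 16 named population differences lost their call. A fit of all 6 populations gave 18 (hypoglossal) and 88 (vagus), and a pseudocount of 0.1 gave 24 (lumbar). Fits without 1 mouse gave 0 to 4, 12 to 42 and 32 to 60 for hypoglossal, lumbar and vagus. The cause of these differences was not tested. Subsets and fits without a mouse hold fewer samples. Their filter on low values also followed the smallest group left, so they tested other numbers of genes. For day 10 against day 2 there were 15791 with day 2 mice 240 and 244, beside 14302 in the main fit. Depth limits genes of low RPKM most in mouse 253.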
